A study of Homo sapiens with 2 samples.

Results

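The SOCS and CISH genes were examined in SU-DHL-1, an established human line of anaplastic large cell lymphoma (ALCL) cells, after knockdown of the NKL homeobox gene HLX. The family was defined by 8 gene symbols, CISH and SOCS1 to SOCS7, and its members were the 25 probe sets that the annotation of the HG-U133 Plus 2.0 array pairs with exactly 1 of these symbols, out of 41091 probe sets paired with 1 gene. One culture had received an siRNA against HLX (siHLX) and the other a negative control siRNA (siCTR), 80 pmol each by electroporation, and both were harvested after 20 h. The cells of both groups carried the NPM1-ALK fusion, and there was 1 array per group from 1 cell line and no replicate. Values are log2 RMA intensities, and every difference is the siHLX value minus the siCTR value. With 1 array on each side no test was possible, and the differences describe these arrays.

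CISH and the SOCS proteins are inhibitors of cytokine signalling. A cytokine receptor activates JAK kinases, which phosphorylate STAT factors, and STAT factors induce genes that include CISH, SOCS1, SOCS2 and SOCS3. The encoded proteins bind phosphorylated receptors or JAK kinases through an SH2 domain, and their SOCS box recruits elongins, a cullin and a RING protein, so that bound partners are marked for degradation. SOCS1 and SOCS3 also carry a kinase inhibitory region that blocks JAK kinases directly. SOCS4, SOCS5, SOCS6 and SOCS7 have a longer N-terminal part and act largely on receptor tyrosine kinases and insulin signalling. In ALCL the NPM1-ALK kinase keeps STAT3 active, and SOCS3 is a classical target of STAT3.

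The sequences upstream of CISH, SOCS1 and SOCS3 are shown because these genes are STAT-induced members of the family; no window was found for SOCS2, another such member. The windows come from RefSeq (GRCh38.p14) and end at the base before the annotated transcription start, and capitals mark matches of the GAS-type STAT motif TTCNNNGAA or of the IRF motif GAAANNGAAA. CISH lies at chr3:50611775-50612024, SOCS1 at chr16:11256205-11256454 and the SOCS3 window farther upstream at chr17:78360926-78361175, all on the minus strand.
CISH: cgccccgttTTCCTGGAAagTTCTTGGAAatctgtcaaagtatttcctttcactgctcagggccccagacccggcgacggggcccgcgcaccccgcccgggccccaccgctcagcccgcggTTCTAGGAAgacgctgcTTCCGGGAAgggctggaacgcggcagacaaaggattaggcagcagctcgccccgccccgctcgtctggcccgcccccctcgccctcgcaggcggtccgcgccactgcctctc
SOCS1: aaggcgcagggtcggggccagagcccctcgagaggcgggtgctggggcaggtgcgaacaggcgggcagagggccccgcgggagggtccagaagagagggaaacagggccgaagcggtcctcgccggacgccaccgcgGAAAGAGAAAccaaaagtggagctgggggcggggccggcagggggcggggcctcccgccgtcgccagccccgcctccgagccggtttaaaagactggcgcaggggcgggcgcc
SOCS3: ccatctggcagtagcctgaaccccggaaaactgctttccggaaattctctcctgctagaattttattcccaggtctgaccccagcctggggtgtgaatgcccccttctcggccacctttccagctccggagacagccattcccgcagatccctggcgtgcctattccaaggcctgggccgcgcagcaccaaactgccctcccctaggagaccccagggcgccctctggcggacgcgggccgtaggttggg
CISH held 4 matches of TTCNNNGAA, at -241 to -233, -230 to -222, -129 to -121 and -112 to -104 from the start. Of 35116 upstream windows of 250 bases in the same table, 6.57% held at least 1 such match and 0.0142% held 4 or more. SOCS1 held 1 match of GAAANNGAAA, at -113 to -104, which 3.02% of the windows hold. Both strands were searched, and the matches did not overlap each other. The other motifs searched were TTCNNNNGAA, present in 5.38% of windows, and the homeobox core TAATTA, present in 4.35%. These had no match in any of the 6 windows found for 5 of the 8 members, namely CISH, SOCS1, SOCS4, SOCS6 and SOCS3, which had a pair of them. SOCS2, SOCS5 and SOCS7 were not matched. The windows of SOCS3, SOCS4 and SOCS6 held none of the motifs, which says only that these letters are not in them. The other SOCS3 window lies at chr17:78359668-78359917, and the bases between it and the window shown were not searched. The result for SOCS3 therefore does not cover its whole upstream region. A motif match is a property of the letters and was not measured as binding.

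HLX, the target of the siRNA, read 8.15 with siCTR and 7.70 with siHLX on its only probe set. The difference of -0.45 lay just outside the middle 95% of 3693 probe sets of like level (within 0.5 log2 units), which ran from -0.41 to 0.44. Of the ALCL and cytotoxic T-cell markers, TNFRSF8, ALK, IL2RA, PRF1, GZMB and BATF3 all read between 9.79 and 13.41. CLU lay in that range too, whereas MUC1 and CD4 read at most 6.58. CD3E and CD247, genes of the T-cell receptor complex, read at most 5.87. Of the markers of other cells, MS4A1, CD14, LYZ, MPO and EPCAM read at most 4.30 on both arrays. This was below the level threshold of 4.865, the median of all probe sets that were not controls. Other such markers read above it, among them CD79A, PAX5, CSF1R, HBB, KRT18, COL1A1 and VIM, the last at 12.94 with siCTR. Of the listed markers with a probe set, 11 of 11 for ALCL and cytotoxic T-cells, 2 of 5 for B-cells, 1 of 6 for myeloid, 3 of 3 for erythroid and 4 of 6 for epithelial and stromal cells lay above that threshold, which is no call of expression. Both arrays had a median of 4.87. Poly-A control transcripts, spiked in before labelling, had a mean difference of -0.29 (SD 0.18, 24 probe sets), and 23 of these were lower with siHLX. Control probe sets for the hybridisation step had a mean difference of -0.025 (SD 0.085, 18 probe sets). When the arrays were scaled to make the poly-A controls equal, the median over all genes shifted from -0.01 to 0.28. Every difference below is therefore relative to the bulk of genes, and the part of the poly-A difference in the results was not tested. The RNA came from whole cultures, in which fewer cells of a kind and less RNA per cell cannot be told apart.

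None of the 25 SOCS and CISH probe sets differed between the arrays by 1.5-fold or more, where 9.51% of all named probe sets did. HLX, the target of the siRNA, did not reach that limit either, at -0.45 or 0.73 times the control value. Among the 16 probe sets at or above the level threshold the differences ran from -0.28 to 0.39 with a median of 0.02, and 0 reached 1.5-fold, against 6.01% of the named probe sets at such levels. Among the 9 probe sets below it they ran from -0.30 to 0.40, and 0 reached that limit, against 13.7%. Counted as genes by the brightest probe set, 7 of 8 members lay at or above the threshold, 0 of these reached 2-fold, and 0.841% of the 12135 genes above the threshold did. The median over these 7 genes was 0.02 and that over all 12135 genes was -0.01. The median absolute difference was 0.10 for the 7 genes and 0.14 for all genes. Of the 25 differences, 24 lay within the middle 95% of named probe sets of like level and 17 within the middle 50%.

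**Figure D1:**
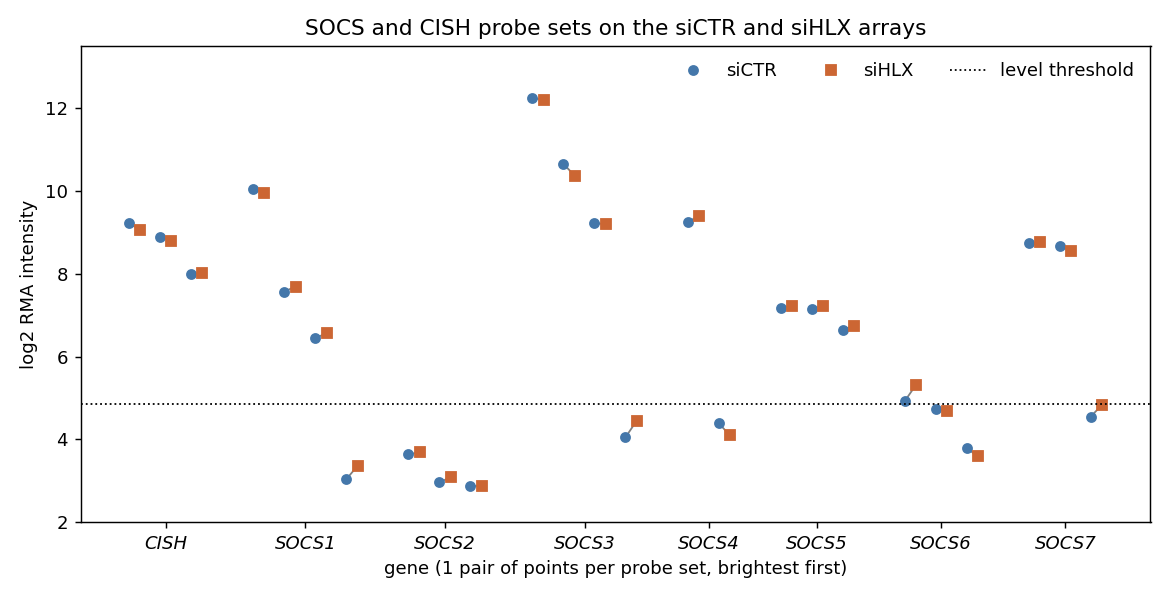
Log2 RMA intensity (y axis) of the 25 probe sets of CISH and SOCS1 to SOCS7 (x axis, ordered by level within a gene) on the siCTR array (circles) and the siHLX array (squares), with the level threshold of 4.865 dotted. The pairs lie close together for each probe set, SOCS2 stays below the threshold on both arrays, and the probe sets of SOCS1 and SOCS3 span a wide range of levels.

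CISH, which blocks STAT5 docking sites on cytokine receptors, was read by 3 probe sets, all above the threshold. The brightest gave 9.23 on the siCTR array and 9.05 on the siHLX array, a difference of -0.18. The others went from 8.89 to 8.79 and from 8.0 to 8.02. The mean difference of CISH was -0.09 (SD 0.10 between its probe sets, a technical spread), and each of the 3 values lay within the middle 95% of probe sets of like level. For the brightest, that range was -0.32 to 0.32. Its 2 brighter probe sets carry the suffix _x_at, which marks probes that may also bind other transcripts.

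SOCS1, the inhibitor of JAK kinases below interferon gamma and common gamma-chain receptors, read 10.05 on the siCTR array and 9.95 on the siHLX array by its brightest probe set, a difference of -0.10. Its other probe sets above the threshold lay on the opposite side, at 0.12 (7.57 to 7.69) and 0.13 (6.44 to 6.57). The mean over these 3 was 0.05 (SD 0.13). A dim probe set went from 3.04 to 3.36. Each of these 4 differences lay within its like-level range, and the probe sets of SOCS1 gave no common direction.

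SOCS2, which limits growth hormone and other STAT5 signals, was dim on both arrays. Its 3 probe sets read 3.64, 2.96 and 2.88 with siCTR and 3.69, 3.09 and 2.88 with siHLX. All were below the threshold, so SOCS2 took no part in the counts over genes. The differences of 0.05, 0.13 and 0.00 were small beside the like-level range of its brightest probe set, -0.81 to 0.76.

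SOCS3, the inhibitor of signalling through gp130 and other receptors that activate STAT3, was read by 4 probe sets, the brightest of which gave 12.24 with siCTR and 12.20 with siHLX. The next probe set went from 10.65 to 10.37, a difference of -0.28 or 0.82 times the control value. This was the only one of the 25 that lay outside the middle 95% of probe sets of like level, which ran from -0.26 to 0.26 over 1407 probe sets. By the way such a range is made, 5% of probe sets lie outside theirs. The third probe set went from 9.23 to 9.19. All 3 SOCS3 probe sets above the threshold were therefore lower on the siHLX array, with a mean difference of -0.12 (SD 0.14), whereas the remaining dim one went from 4.05 to 4.45. On the brightest probe set, with a difference of -0.04, the like-level range was -0.21 to 0.16.

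SOCS4, an inhibitor of epidermal growth factor receptor signalling, went from 9.24 to 9.40 on its bright probe set, a difference of 0.16. Its dim probe set went the other way, from 4.40 to 4.10. The like-level range of the bright probe set was -0.32 to 0.31, and that of the dim one -0.94 to 0.91. SOCS5, which also acts on that receptor and on IL4 signalling, was slightly higher with siHLX on all 3 probe sets. They read 7.18, 7.15 and 6.64 with siCTR and 7.22, 7.22 and 6.75 with siHLX. The mean difference of SOCS5 was 0.07 (SD 0.04), and its probe sets read the same RNA, so they are no replicates.

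SOCS6, which binds the receptor kinase KIT and insulin receptor substrates, had the largest difference of the brightest readings, from 4.92 to 5.31 or 0.39. Its siCTR value lay close to the level threshold. Its other probe sets were dimmer and lower with siHLX, going from 4.74 to 4.69 and from 3.79 to 3.59. The mean over the 3 was 0.05 (SD 0.31). At the level of the brightest, the middle 95% of probe sets ran from -0.91 to 0.92. SOCS7, a partner of insulin receptor substrates and adaptor proteins, went from 8.74 to 8.76 and from 8.68 to 8.54 on its bright probe sets and from 4.55 to 4.83 on the dim one. The readings of SOCS6 and SOCS7 thus had no common sign over their probe sets.

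**Figure D2:**
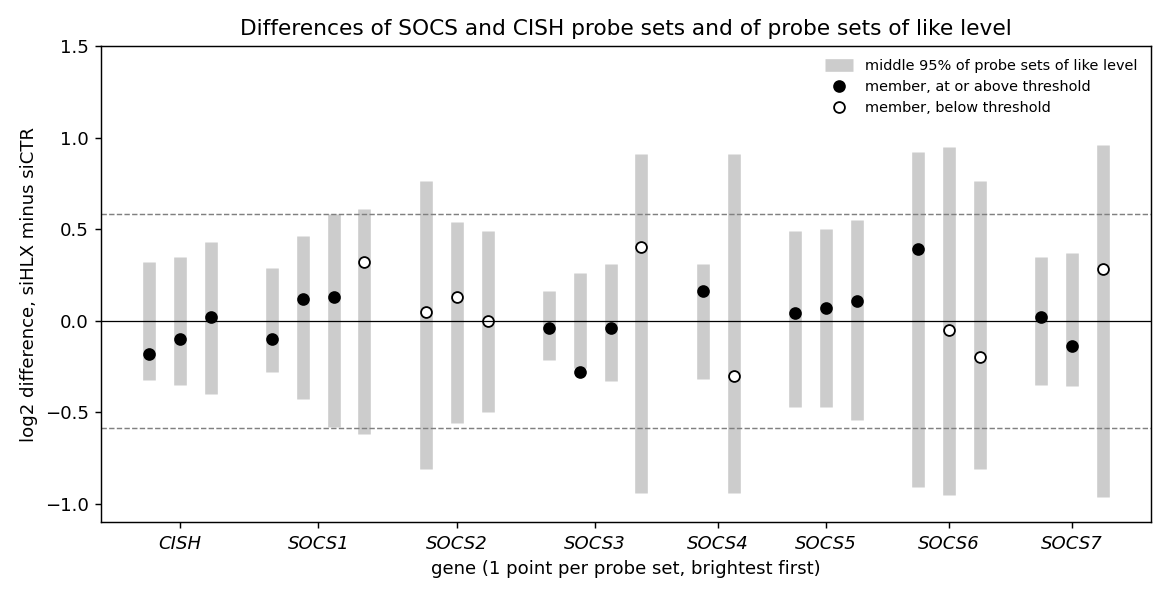
Log2 difference, siHLX minus siCTR (y axis), of each SOCS and CISH probe set (x axis, brightest first within a gene); filled points are at or above the level threshold and open points below it, grey bars hold the middle 95% of named probe sets of like level, and dashed lines mark 1.5-fold. Of the 25 points 24 lie on their bar, the second probe set of SOCS3 at -0.28 lies just below its bar, and 0 reach 1.5-fold.

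The cytokine-inducible members and those with a long N-terminal part that were above the level threshold lay on different sides of 0 by their brightest probe sets, whereas SOCS2, inducible but below the threshold, read 0.05. CISH, SOCS1 and SOCS3 read -0.18, -0.10 and -0.04, and SOCS4, SOCS5, SOCS6 and SOCS7 read 0.16, 0.04, 0.39 and 0.02. Of all genes above the threshold, 50.1% were lower and 47.4% higher with siHLX. Over single probe sets above the threshold, 6 of 9 of the inducible members were lower and 6 of 7 of the long members higher, beside 49.9% lower and 47.5% higher of all named probe sets at such levels. Below the threshold, 4 of 5 probe sets of inducible members were higher, with 1 at 0.00, and 3 of 4 of the long members lower, beside 45.9% higher and 48.8% lower of all named probe sets there. When all probe sets of a gene were averaged, CISH gave -0.09, whereas SOCS1 and SOCS3 gave 0.12 and 0.01 and SOCS4 gave -0.07. Scaled to equal poly-A controls, CISH, SOCS1 and SOCS3 lay above 0 as well, at 0.11, 0.19 and 0.25. That scaling adds the same amount to every probe set, and these genes stayed below the median of all genes, 0.28. The difference between the groups of members was not tested, since neither array was repeated.

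The enzymes and factors that SOCS proteins act on showed differences of a like size. All 4 JAK kinase genes were lower by their brightest probe set, beside 50.1% of all genes above the threshold. JAK2 went from 5.60 to 5.37, JAK3 from 10.08 to 9.92, TYK2 from 8.75 to 8.59 and JAK1 from 9.88 to 9.78. Their median was -0.16, and 0.11 over 3 genes when all probe sets of a gene were averaged. With equal poly-A controls it was 0.13, below the 0.28 of all genes in that scaling. The other probe sets of JAK2, below the threshold, were lower too, with 1 from 5.12 to 4.10 (-1.02) and 1 from 3.59 to 3.36 (-0.23). Other probe sets of JAK1 above the threshold read 0.31 and 0.12, and those of JAK3 read -0.17 and, near the threshold, 0.90. All 5 STAT genes with a probe set of their own were higher by their brightest probe set, beside 47.4% of all genes above the threshold. Their median of 0.11 lay above that of all genes in every setting run. STAT5B went from 9.42 to 9.65, STAT4 from 5.23 to 5.37, STAT6 from 8.20 to 8.31, STAT3 from 11.49 to 11.55 and STAT5A from 5.37 to 5.41. The weakest probe set of STAT6 above the threshold read -0.12, and 1 each of STAT3 and STAT5B read -0.02 and -0.01. Neither family had a gene at 1.5-fold by its brightest probe set, which 5.05% of all genes above the threshold reached.

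Inhibitors of the pathway outside the SOCS family were higher with siHLX in 11 of 13 genes, beside 47.4% of all genes above the threshold. Their median was 0.13, and -0.005 with all probe sets averaged. PIAS3, an inhibitor of STAT3 binding to DNA, went from 7.42 to 7.84, and the phosphatase gene PTPRC (CD45) from 9.34 to 9.71, with its 3 probe sets above the threshold between 0.28 and 0.37. PIAS4 went from 7.82 to 7.58 and PIAS1 from 8.40 to 8.20, but other probe sets of both read as high as 0.18 and 0.24. In 0 of the 13 was the difference 1.5-fold, which 5.05% of all genes above the threshold reached.

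Genes of the ubiquitin ligase through which the SOCS box works differed little by their brightest probe sets. Other probe sets above the threshold reached -0.51 for CUL2, -0.39 for RNF7 and 1.01 for CUL5. Of 11 genes, 7 were lower and 4 higher, beside 50.1% lower and 47.4% higher of all genes above the threshold. The median of the 11 was -0.03, and 0.03 with all probe sets averaged. With equal poly-A controls it was 0.26, beside 0.28 for all genes. The elongin genes ELOB and ELOC had differences of -0.03 and -0.02 by their brightest probe sets and of 0.09 and 0.35 by their other ones. CUL5, the cullin of SOCS complexes, went from 9.78 to 9.65, with its other probe sets between -0.22 and 1.01. ARIH2, a ubiquitin ligase that works with CUL5, went from 9.35 to 9.19, and DCUN1D1, a factor of cullin neddylation, from 9.22 to 9.47. UBE2F, the neddylation enzyme for CUL5, read 8.79 and 8.81.

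Other proteins with a SOCS box spread more widely than the SOCS and CISH genes. Of 15 genes above the threshold, 6 were higher and 9 lower, beside 47.4% higher and 50.1% lower of all genes there. The median was -0.04, and 0.25 with equal poly-A controls, where that of all genes was 0.28. The list median was 0.05 with all probe sets averaged and 0.01 above the 75th percentile of level. ASB15 went from 5.34 to 6.26 and ASB3 from 4.50 to 5.41, the 2 genes of this list past 1.5-fold, each on 1 probe set and at low level. Of all genes above the threshold, 5.05% reached that limit. ASB3 lay below the level threshold with siCTR and was counted only because of its siHLX value. SPSB2, an adaptor that targets the inducible nitric oxide synthase, went from 6.37 to 5.79, and RAB40C from 7.04 to 6.72.

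Receptors and adaptors that SOCS proteins bind were higher in 9 of 13 genes and lower in 3, with a median of 0.02. Of all genes above the threshold, 47.4% were higher and 50.1% lower. EGFR reached 2-fold, from 4.74 to 5.74, as 0.841% of all genes above the threshold did. Its siCTR value lay below the level threshold, so EGFR was counted only because of its siHLX value. Its other probe sets above the threshold read as low as -0.39. MET, the receptor of hepatocyte growth factor, went from 6.89 to 7.22. The interferon receptor genes IFNAR1 and IFNGR1 went from 7.76 to 7.40 and from 10.92 to 10.78, and each had a probe set of the opposite sign. IL2RB, a receptor chain bound by CISH, read 11.16 and 11.18.

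Beyond the SOCS and CISH genes themselves, STAT3 targets had a median of -0.03, with 8 of 19 higher and 11 lower. Of all genes above the threshold, 47.4% were higher and 50.1% lower. The median of STAT3 targets was 0.26 with equal poly-A controls, beside 0.28 for all genes, and 0.0025 with all probe sets averaged. HLX, itself described as such a target, was the lowest at -0.45, BIRC5 (survivin) went from 9.75 to 9.55, ICOS from 7.63 to 7.81 and VMP1, host of a STAT3-induced microRNA, from 7.11 to 7.66. STAT5 targets had a median of 0.02, with 7 of 13 higher, and -0.085 without probe sets of the suffix _s_at or _x_at. PIM2, a survival kinase, went from 6.44 to 6.05 and TNFRSF18 from 5.23 to 4.65, whereas BCL2 and BCL6 read 0.14 and 0.13 with other probe sets of opposite sign. TNFRSF18 lay below the level threshold with siHLX. STAT6 targets were higher in 6 of 7 genes, beside 47.4% of all genes, with a median of 0.12. That median was 0.02 above the 75th percentile of level and 0.07 with all probe sets averaged. Among STAT6 targets, FCER2 went from 4.69 to 5.23, with its siCTR value below the level threshold. GATA3 went from 9.04 to 9.54, with its 3 probe sets above the threshold between 0.50 and 0.63. XBP1 went from 8.14 to 7.91 and IL4R from 9.32 to 9.33.

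**Figure D3:**
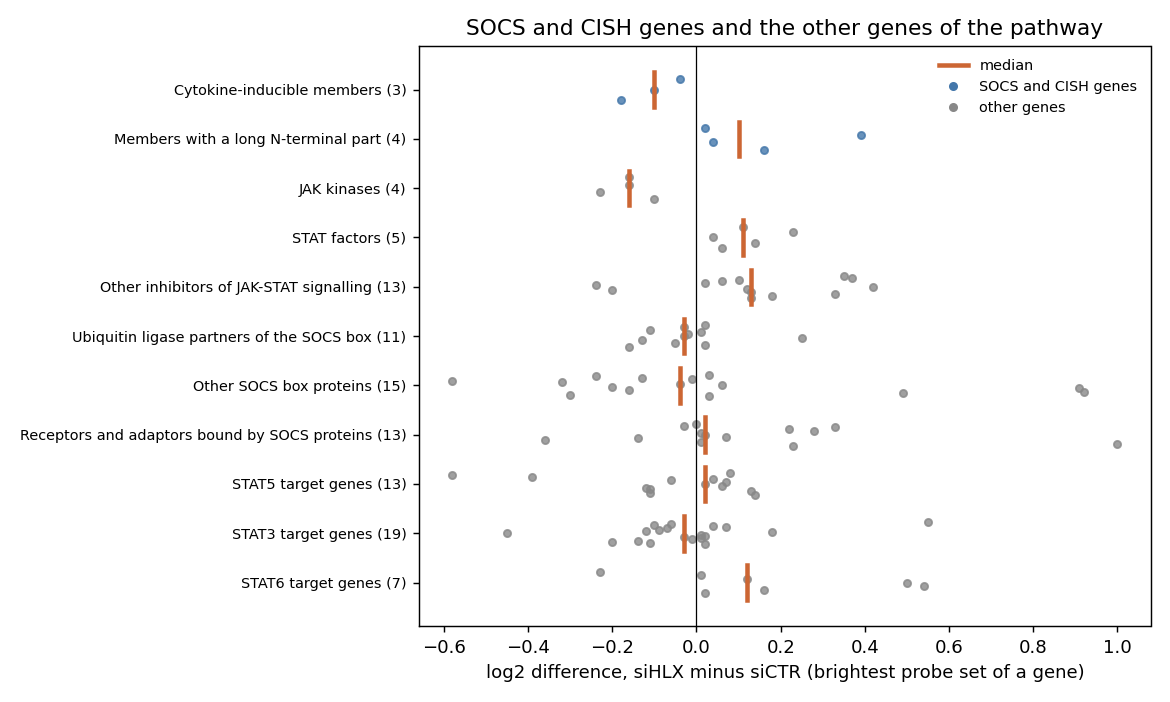
Log2 difference, siHLX minus siCTR (x axis), of each gene above the level threshold by its brightest probe set, for the SOCS and CISH genes and 9 lists of the pathway (y axis, number of genes in parentheses); vertical bars are medians. The inducible members have a median of -0.10, the long members of 0.10 and JAK kinases of -0.16. With the arrays scaled to equal poly-A controls, JAK kinases and inducible members turn positive but stay below the median of all genes, 0.28.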

How the data were processed

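The data were the values of 2 HG-U133 Plus 2.0 arrays, 1 per siRNA, grouped by the treatment in the labels. The authors deposited log2 intensities, background corrected with RMA and quantile normalised in R (limma, affy; versions not given in the sources used here). Quantile normalisation hides a change shared by most transcripts. Ratios to the sample mean, described in the methods, were not seen in these values.

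Probe sets were named from the platform annotation. Symbols were updated by Entrez identifier against RefSeq (GRCh38.p14), with 41037 of 41091 found. The Python version was 3.11.15. A gene was read by its probe set of highest mean, and counted at a mean of at least 4.865. Limits were 1.5-fold and 2-fold. Like-level ranges are central 95% ranges of named probe sets within 0.5 log2 units. No test was run, as there was 1 array per group; the steps were checked on simulated data. The number of arrays limits the precision. Members and lists were chosen with earlier results of these data known. All members, HLX, and the 2 highest and 2 lowest genes of each list are named; genes outside that rule were chosen for their role or after their values were seen. Alternatives were other scalings, level thresholds, probe set choices and fold limits. 1 of the planned lists is not reported here.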

Additional observations from a re-analysis of the deposited data

How the results depend on the processing

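With equal poly-A controls the median of the SOCS and CISH genes was 0.31 instead of 0.02, and 1 of 16 probe sets above the level threshold reached 1.5-fold instead of 0; that scaling adds the same amount to every probe set, and the median of all genes became 0.28. In the other settings the median of the members lay between -0.01, when the level threshold was the 75th percentile, and 0.09, without _s_at or _x_at probe sets, which left 4 genes. The count of members at 2-fold was 0 in every setting run. With a limit of 1.5-fold it was 0 as well in the scaling used throughout, whereas SOCS6 passed that limit with equal poly-A controls, at 0.68. Of 9 pathway lists, 5 had a median above that of all genes, and 9 did when all probe sets of a gene were averaged; the cause was not tested. That count lay between 4 and 6 in the other settings. A change is called moved here when it exceeds 0.27, the SD between a gene's probe sets, pooled over genes. No paired analysis was possible because there was 1 array per group. Low signal limits SOCS2 and SOCS6: the former lay below the level threshold on all 3 probe sets, and the like-level range of the brightest SOCS6 probe set ran from -0.91 to 0.92.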

Other observations

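The antisense transcript of the SOCS2 locus, SOCS2-AS1, was read by a probe set of its own that is no member of the family. It read 3.27 on the siCTR array and 3.36 on the siHLX array and lay below the level threshold like all probe sets of SOCS2.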
